A study of Homo sapiens with 6 samples.

Results

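SMARCA5 and 9 subunits of the SWI/SNF chromatin remodelers were followed in total RNA of SEM cells that expressed either wild-type CTCF or CTCF without its RNA-binding region (RBR). The 10 genes (SMARCA5, SMARCA4, SMARCB1, SMARCC1, SMARCC2, SMARCD1, SMARCE1, ARID1A, ARID1B and ARID2) were taken by symbol from the 57820 genes listed in the tables. The rule used no measured value, but the genes were chosen with earlier results of these data known. All 10 were among the 14044 genes tested. Symbols gave 7 of them, and the 3 ARID genes, whose listed symbols carry an inserted "-NEWNAME", were found by Ensembl identifier.

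The human cell line SEM derives from a B-cell acute lymphoblastic leukemia (B-ALL). The 3 CTCF-WT libraries came from CTCF-AID2/WT cells and the 3 CTCF-dRBR libraries from CTCF-AID2/dRBR cells. In both lines the endogenous CTCF was fused to miniAID and mClover3, OsTIR1(F74G) was expressed, and the auxin analog 5-Ph-IAA caused the tagged protein to be degraded. Cells of both groups were kept in 5-Ph-IAA for 24 h (the methods give 1 µM and 10 µM), with 1 µg/mL doxycycline for the last 18 h to switch on HA-tagged CTCF. The labels name the TRE3G-HA-CTCF-dRBR transgene for CTCF-dRBR and no transgene for CTCF-WT, whose libraries were assigned by their titles. Nothing states that the 3 replicates were separate cultures, so p-values measure the spread between these libraries only. Each group came from its own cell line, so loss of the RBR cannot be told apart from other differences between the lines.

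Chromatin remodelers use ATP to slide, eject or space nucleosomes. SMARCA5 (SNF2H) is the ATPase of the ISWI remodelers, which space nucleosomes evenly, and in other cell types it is known to be needed for CTCF to bind its sites and for the nucleosome arrays beside them. SWI/SNF remodelers are built around SMARCA4 (BRG1) or its paralog SMARCA2 (BRM), and open chromatin at enhancers and promoters. The canonical BAF form holds ARID1A or ARID1B, and the PBAF form holds ARID2.

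Promoter sequence is shown for SMARCA5 and ARID1A, since CTCF is named for the motif CCCTC. They had the highest and the lowest fold change of the members in the fit to all 6 libraries, and neither passed the test. Each line holds the 250 bases before the start given by RefSeq (GRCh38.p14), 5′ to 3′ on the plus strand, with every match to CCCTC or its reverse complement GAGGG in capitals.
SMARCA5, chr4:143513452-143513701: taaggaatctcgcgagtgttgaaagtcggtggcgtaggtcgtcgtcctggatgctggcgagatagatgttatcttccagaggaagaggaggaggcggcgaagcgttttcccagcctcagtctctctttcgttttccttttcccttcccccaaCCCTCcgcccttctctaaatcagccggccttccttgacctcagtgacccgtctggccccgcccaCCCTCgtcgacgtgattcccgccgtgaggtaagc
ARID1A, chr1:26695765-26696014: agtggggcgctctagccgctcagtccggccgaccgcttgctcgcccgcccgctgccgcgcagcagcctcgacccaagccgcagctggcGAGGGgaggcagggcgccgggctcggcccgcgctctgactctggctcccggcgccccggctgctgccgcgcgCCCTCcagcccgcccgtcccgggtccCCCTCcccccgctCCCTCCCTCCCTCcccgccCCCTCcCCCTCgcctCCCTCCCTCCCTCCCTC
The SMARCA5 sequence held 2 matches, both on the plus strand, in 58% GC. The ARID1A sequence held 12 matches, 11 on the plus strand and 1 on the minus strand, many of them overlapping, in 80.4% GC. Of 35116 RefSeq promoters, 66.6% held at least 1 match in the same 250 bases and 66 (0.188%) held 10 or more. The table lists 9 promoters for 7 of the members, and the other 7 promoters held 0 to 3 matches each. A match is a string of letters and not a binding site, and a link between matches and fold changes was not tested. In the fit with the GC trend removed, described below, the highest and lowest members were SMARCB1 (0.35) and ARID1B (-0.44). The promoter of SMARCB1 held 0 matches, and those of ARID1B held 1 and 0. SMARCC1, SMARCC2 and ARID2 have no entry in the table.

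Total counts were between 51732177 and 53166735 in the CTCF-WT libraries and were 30034505, 48912209 and 50457168 for CTCF-dRBR replicates 1, 2 and 3. CTCF itself had 209.9, 211 and 249 CPM under CTCF-WT and 273, 264 and 252 CPM under CTCF-dRBR, where CPM are counts scaled to library size by TMM. Its log2 fold change was 0.24 (standard error, SE, 0.10, limma-voom adjusted p = 0.202), and transcripts of the transgene and of the endogenous gene were not separated. CTCF-dRBR replicate 1 stood apart: its Spearman's rho with the other libraries over all genes tested was 0.913 to 0.968, against 0.971 to 0.997 for the other pairs. It was the highest or the lowest of the 6 libraries for 80.5% of the genes tested (39.4% highest and 41.0% lowest). The label B-ALL was checked against 7 B-lineage markers, of which 6 were at 1 TPM or more in every library and DNTT was below 1 TPM in all of them. Their summed level was 187 to 283 TPM in CTCF-WT and 245 to 329 TPM in CTCF-dRBR. The sums of 6 T-lineage markers (at most 0.66 TPM, CD3D at 0) and 4 erythroid markers (at most 0.080 TPM, HBA1 and ALAS2 at 0) were near 0, and the sum of 5 myeloid markers (2.49 to 5.26 TPM, ELANE at 0) was nearly all LYZ.

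None of the 10 remodeler genes differed between CTCF-dRBR and CTCF-WT past the test. Their log2 fold changes, CTCF-dRBR over CTCF-WT, lay between -0.60 (ARID1A) and 0.30 (SMARCA5), with adjusted p between 0.203 and 0.891 in limma-voom with Benjamini-Hochberg adjustment over all genes tested. No gene of the 14044 passed an adjusted p under 0.05 (0%) in this fit or in edgeR, and 3569 genes had an unadjusted p under 0.05. At that unadjusted level there were 0 of 10 members, beside 25.4% of all genes tested, while edgeR (24.6% of genes) and DESeq2 (30.3%) gave 1 member, ARID1A. SMARCA5, SMARCE1 and ARID2 had a fold change above 0 and the other 7 members below 0 (50.6% of all genes), with a median log2 fold change of -0.13 over the members and -0.0076 over all genes tested. The groups did not overlap for 1 member, SMARCC1, which was lower in CTCF-dRBR, beside 37.5% of all genes (20.0% higher and 17.5% lower). In bulk RNA, fewer cells of a type and less RNA per cell cannot be told apart.

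The weight given to single libraries changed this. The method voomWithQualityWeights gave replicate 2 the largest weight of each group, 5.65 in CTCF-WT and 6.19 in CTCF-dRBR. Replicate 1 had a weight of 1.26 in CTCF-WT but 0.0969 in CTCF-dRBR, while replicate 3 had 0.496 in CTCF-WT against 0.472 in CTCF-dRBR. The p-values of this fit therefore rest mostly on replicate 2 of each group. With these weights 7 members and 68.2% of all genes tested passed the adjustment. An unadjusted p under 0.05 was found for 71.4% of the genes. ARID1A (log2 fold change -0.80), ARID1B (-0.30), SMARCD1 (-0.15), SMARCC2 (-0.15) and SMARCC1 (-0.12) were lower, and SMARCB1 (0.27) and SMARCA5 (0.19) higher, with adjusted p between 0.000834 and 0.0401. In DESeq2 11.5% of the genes passed and 0 members. With CTCF-dRBR replicate 1 set aside and the CPM kept as they were, the groups did not overlap for 2 members, SMARCC1 lower and SMARCB1 higher, beside 47.8% of all genes. When the other 5 libraries were filtered and normalized anew there were 4, with SMARCD1 and ARID1B lower too, beside 47.6% of the genes tested in that fit. In that fit 3.90% of the genes passed the adjustment and 0 members.

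**Figure D1:**
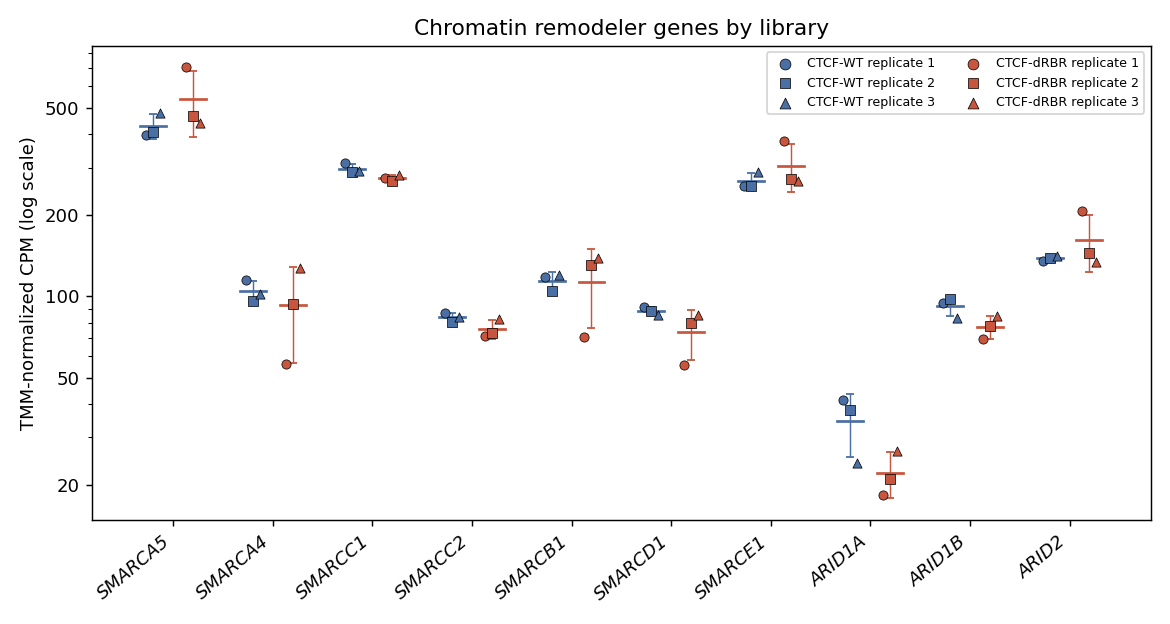
TMM-normalized CPM (log axis) of the 10 remodeler genes in the 3 CTCF-WT (blue) and 3 CTCF-dRBR (red) libraries, with circles, squares and triangles for replicates 1, 2 and 3, and the mean and SD of each group as lines. CTCF-dRBR replicate 1 is the highest of the 6 libraries for SMARCA5, SMARCE1 and ARID2 and the lowest for 6 of the other 7 genes, and the groups are separate for SMARCC1 only.

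SMARCA5 (ENSG00000153147.5, chr4:144434855-144478639, plus strand, GRCh37), the ISWI ATPase, measured 395, 408 and 479 CPM under CTCF-WT and 705, 467 and 440 CPM under CTCF-dRBR, here and throughout in the order of replicates 1, 2 and 3. CTCF-dRBR replicate 1 was far above the rest, and the other CTCF-dRBR libraries lay within the range of CTCF-WT. The means were 428 ± 45.0 and 537 ± 146 CPM (SD, n = 3), with a log2 fold change of 0.30 (SE 0.20, limma-voom adjusted p = 0.319). Its 95% confidence interval ran from a fold of 0.887 to 1.71. Without CTCF-dRBR replicate 1 the log2 fold change was 0.085 (SE 0.11, adjusted p = 0.605). On the opposite strand the gene overlaps SMARCA5-AS1, a non-coding RNA gene, and the tables' names call the data stranded, but the strand setting of the counting was not found in the sources used here.

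The paralog SMARCA1, the other ISWI ATPase, was close to absent, with 0, 0.010 and 0.010 TPM in CTCF-WT and 0.070, 0.030 and 0.020 TPM in CTCF-dRBR. It did not pass the filter of 1 CPM in any library, and with a TPM of 0 in CTCF-WT replicate 1 no ratio to SMARCA5 was formed. SMARCA5 was at 29.8 TPM or more in every library.

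SMARCA4 (ENSG00000127616.13, chr19:11071608-11190102, plus strand), the SWI/SNF ATPase, had 115, 96.5 and 102 CPM under CTCF-WT and 56.2, 93.7 and 128 CPM under CTCF-dRBR. The CTCF-dRBR libraries spanned the whole range of CTCF-WT, with the lowest value in replicate 1 and the highest in replicate 3. Its log2 fold change in the model was -0.23 (SE 0.28, limma-voom adjusted p = 0.581) and turned to 0.067 without CTCF-dRBR replicate 1.

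SMARCA2, the alternative ATPase of the same complexes, had a higher TPM than SMARCA4 in all 6 libraries. The ratio of SMARCA4 to SMARCA2 was 0.514, 0.398 and 0.431 in CTCF-WT and 0.195, 0.468 and 0.468 in CTCF-dRBR. A ratio within a library does not depend on how that library was scaled, but the GC trend described below was not removed from the ratios. The exons of SMARCA4 were at 57.0% GC and those of SMARCA2 at 45.0%. Here CTCF-dRBR replicate 1 alone was low. The log2 ratio was -1.17 ± 0.19 in CTCF-WT and -1.52 ± 0.73 in CTCF-dRBR (SD, n = 3), a difference of -0.35 (exact permutation test, two-sided, p = 0.7, adjusted over 3 ratios 0.8), which was 0.071 without CTCF-dRBR replicate 1. The smallest p that 3 libraries against 3 can give is 0.1.

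SMARCC1 and SMARCC2 (BAF155 and BAF170) are the paralogous scaffold subunits on which the complex is assembled. SMARCC1 (ENSG00000173473.6, chr3:47626759-47823596, minus strand) had 312, 288 and 292 CPM under CTCF-WT and 276, 269 and 282 CPM under CTCF-dRBR. The groups were separate by a small margin, CTCF-dRBR being the lower. The two-sided exact permutation test of the CPM gave p = 0.1, as it does for any gene without overlap in 3 libraries against 3. Limma-voom gave a log2 fold change of -0.11 (SE 0.082, adjusted p = 0.371), the same without CTCF-dRBR replicate 1 (-0.11). SMARCC1 was the only member for which CTCF-dRBR replicate 1 was not an extreme of the 6 libraries.

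SMARCC2 (ENSG00000139613.7, chr12:56556143-56583351, minus strand), which overlaps MYL6 on the opposite strand, had 87.1, 80.4 and 83.7 CPM under CTCF-WT and 71.1, 73.2 and 82.4 CPM under CTCF-dRBR. CTCF-dRBR replicates 1 and 2 were below all CTCF-WT libraries and replicate 3 among them, and the log2 fold change was -0.15 (SE 0.099, limma-voom adjusted p = 0.332). The ratio of SMARCC1 to SMARCC2, both in TPM, was 2.01, 2.17 and 2.05 in CTCF-WT and 2.45, 2.11 and 1.82 in CTCF-dRBR. Its mean log2 ratio differed by 0.025 (exact permutation test, two-sided, p = 0.8, also 0.8 after adjustment), and by -0.083 without CTCF-dRBR replicate 1.

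SMARCB1 (SNF5, ENSG00000099956.13, chr22:24129118-24180196, plus strand) is the core subunit that contacts the nucleosome and is lost in rhabdoid tumors. It had 118, 105 and 120.0 CPM under CTCF-WT and 70.6, 131 and 138 CPM under CTCF-dRBR, so that replicate 1 lay below and the other CTCF-dRBR replicates above all CTCF-WT libraries. Over all libraries the log2 fold change was -0.054 (SE 0.26, limma-voom adjusted p = 0.891). Without CTCF-dRBR replicate 1 it turned to 0.23 (SE 0.094, unadjusted p = 0.0451, limma-voom adjusted p = 0.157), where 30.4% of the genes tested had an unadjusted p under 0.05. DERL3 overlaps SMARCB1 on the opposite strand.

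SMARCD1 (BAF60A, ENSG00000066117.10, chr12:50478983-50494490, plus strand), an accessory subunit known to bridge the complex to transcription factors, had 91.3, 88.0 and 85.1 CPM under CTCF-WT and 55.8, 79.7 and 85.2 CPM under CTCF-dRBR. Replicate 1 was the low one again, and replicate 3 was at the level of CTCF-WT. In the model SMARCD1 had a log2 fold change of -0.27 (SE 0.17, limma-voom adjusted p = 0.302) and -0.10 without CTCF-dRBR replicate 1.

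SMARCE1 (BAF57, ENSG00000073584.14, chr17:38781214-38804906, minus strand), the subunit with a DNA-binding HMG domain, had 256, 256 and 289 CPM under CTCF-WT and 376, 273 and 267 CPM under CTCF-dRBR. As for SMARCA5, CTCF-dRBR replicate 1 was above all other libraries and the rest lay within the CTCF-WT range. SMARCE1's log2 fold change of 0.17 (SE 0.15, limma-voom adjusted p = 0.438) fell to 0.012 without that library. On the same strand SMARCE1 overlaps a protein-coding gene, ENSG00000264058. Stranded reads do not separate such genes, and how reads of the overlap were assigned was not tested.

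ARID1A (ENSG00000117713.13, chr1:27019727-27108595, plus strand), the DNA-binding subunit of canonical BAF that is often mutated in cancer, had the log2 fold change farthest from 0 among the members in the fit to all libraries. After removal of the GC trend that of ARID1B was farther from 0, and on log2(TPM + 1) that of ARID1A was the nearest to 0. It had 41.5, 37.8 and 24.1 CPM under CTCF-WT and 18.4, 21.1 and 26.8 CPM under CTCF-dRBR. CTCF-WT replicate 3 lay among the CTCF-dRBR libraries, below CTCF-dRBR replicate 3, and the other CTCF-WT libraries were above all of them. The means were 34.5 ± 9.15 and 22.1 ± 4.28 CPM (SD, n = 3). The log2 fold change was -0.60 (SE 0.26, unadjusted p = 0.0555, limma-voom adjusted p = 0.203), and -0.50 without CTCF-dRBR replicate 1 (adjusted p = 0.216). Over the 6 fits that each left out a library it ran from -0.46 without CTCF-WT replicate 1 (limma-voom adjusted p = 0.492) to -0.84 without CTCF-WT replicate 3 (adjusted p = 0.172).

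ARID1B (ENSG00000049618.17, chr6:157097154-157531913, plus strand) takes the place of ARID1A in other BAF complexes. It had 94.5, 97.4 and 83.3 CPM under CTCF-WT and 69.4, 77.7 and 84.7 CPM under CTCF-dRBR, with the same 2 libraries overlapping, CTCF-WT replicate 3 and CTCF-dRBR replicate 3. The log2 fold change was -0.24 (SE 0.12, unadjusted p = 0.0793, limma-voom adjusted p = 0.225) and -0.18 without CTCF-dRBR replicate 1. The ratio of ARID1A to ARID1B, both in TPM, was 0.446, 0.370 and 0.291 in CTCF-WT and 0.324, 0.294 and 0.319 in CTCF-dRBR. The mean log2 ratio was lower by 0.22 in CTCF-dRBR, a difference of -0.22 (exact permutation test, two-sided, p = 0.4, adjusted over 3 ratios 0.8). The exons of ARID1A were at 52.3% GC and those of ARID1B at 42.8%, and the GC trend was not removed here either.

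ARID2 (ENSG00000189079.11, chr12:46123489-46301823, plus strand), the ARID subunit of PBAF, had 136, 139 and 141 CPM under CTCF-WT and 207, 145 and 134 CPM under CTCF-dRBR. Only CTCF-dRBR replicate 1 was far from the other 5 libraries. The log2 fold change was 0.19 (SE 0.17, limma-voom adjusted p = 0.435), and 0.0062 without that library. A long non-coding RNA gene overlaps ARID2 on the same strand, as is also the case for SMARCC1, SMARCC2 and ARID1B.

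**Figure D2:**
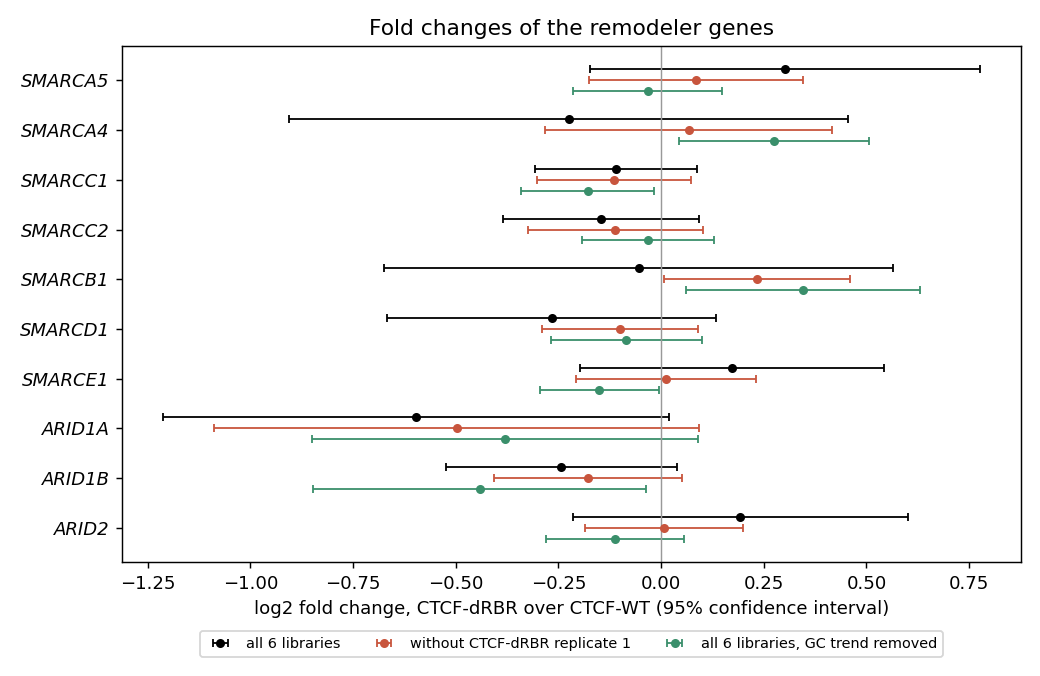
Log2 fold change (CTCF-dRBR over CTCF-WT) of each remodeler gene with its 95% confidence interval from limma-voom, for all 6 libraries (black), without CTCF-dRBR replicate 1 (red) and after removal of the GC trend (green). All black intervals cross 0. Without CTCF-dRBR replicate 1, SMARCA4 and SMARCB1 change sign and most intervals are narrower, and after removal of the GC trend 5 genes have the opposite sign to black.

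The position of CTCF-dRBR replicate 1 among the libraries went with the GC content of the members' exons. The 3 members under 40% GC were SMARCA5 (37.8%), SMARCE1 (38.2%) and ARID2 (38.9%), and in all 3 CTCF-dRBR replicate 1 was the highest library. This was also the case for 86.5% of the 2423 genes tested with under 40% GC. The 5 members over 50% GC were SMARCC2 (50.1%), SMARCD1 (51.5%), ARID1A (52.3%), SMARCB1 (55.4%) and SMARCA4 (57.0%), and in all 5 it was the lowest library, as for 81.7% of the 5380 genes over 50% GC. Of the members in between, it was the lowest library for ARID1B (42.8%) and in the middle for SMARCC1 (46.4%). Across the 13654 genes with a GC value, Spearman's rho between GC content and log2 fold change was -0.68, and across the 10 members it was -0.64. Without CTCF-dRBR replicate 1 these were -0.48 and -0.018. These correlations are across genes, which share the libraries and are not independent replicates, and they describe these libraries only. The fitted GC trend, in log2 CPM relative to each gene's mean over the libraries, was not confined to CTCF-dRBR replicate 1. At 60.2% GC it was 0.52, 0.45 and 0.090 in CTCF-WT and -1.13, -0.18 and 0.26 in CTCF-dRBR. At 38.4% GC it was -0.25, -0.18 and -0.061 in CTCF-WT and 0.46, 0.087 and -0.060 in CTCF-dRBR.

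**Figure D3:**
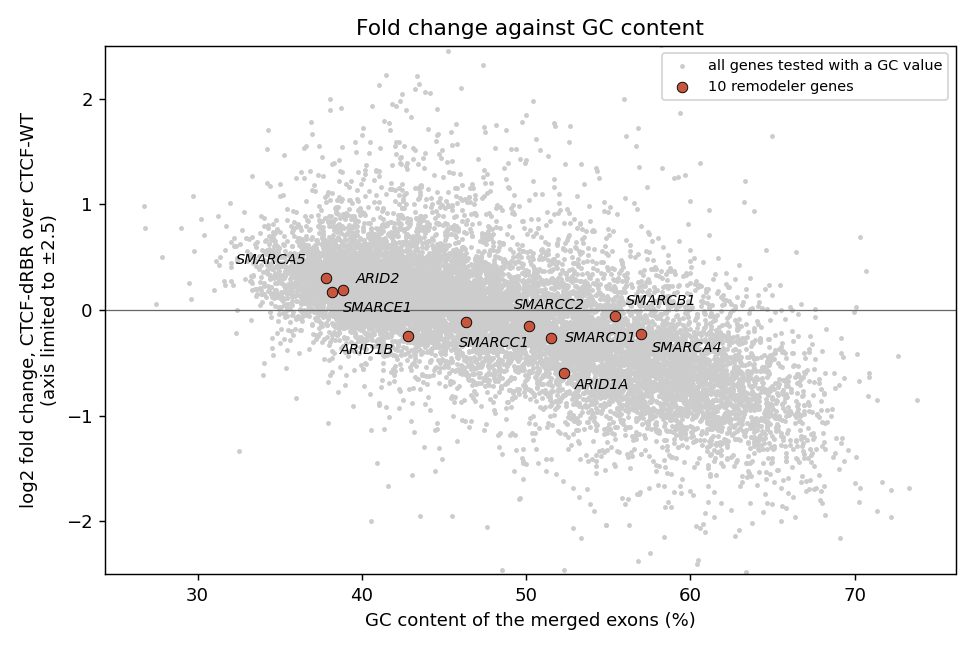
Log2 fold change (CTCF-dRBR over CTCF-WT, vertical axis limited to ±2.5, which leaves out 83 genes) against the GC content of the merged exons for the 13654 genes tested with a GC value (gray) and the 10 remodeler genes (red). SMARCA5, SMARCE1 and ARID2 lie at the left above 0, and the 5 members over 50% GC lie at the right below 0, along the slope of all genes.

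When a smooth GC trend was removed from each library, the members were ordered differently. SMARCA5 had a log2 fold change of -0.032 (SE 0.076, limma-voom adjusted p = 0.795), ARID2 of -0.11 and SMARCE1 of -0.15, all with the opposite sign. SMARCA4 turned to 0.27 (SE 0.097, unadjusted p = 0.0269, limma-voom adjusted p = 0.116) and SMARCB1 to 0.35 (SE 0.12, unadjusted p = 0.0246, adjusted p = 0.111). ARID1A stayed below 0 at -0.38 (limma-voom adjusted p = 0.234), ARID1B at -0.44 (unadjusted p = 0.0366, adjusted p = 0.136) and SMARCC1 at -0.18 (unadjusted p = 0.0350, adjusted p = 0.133). The merged exons of ARID1B, at 45931 bases, were the longest of the members. Whether their GC content is that of the transcripts counted was not tested, which limits the value for ARID1B. In this fit 1258 genes, 9.21% of those with a GC value, passed an adjusted p under 0.05, and none of the members was among them. At an unadjusted p under 0.05 there were 5 members, SMARCA4, SMARCB1, SMARCC1, SMARCE1 and ARID1B, beside 31.3% of the genes. SMARCC2 moved from -0.15 to -0.033 (SE 0.067, unadjusted p = 0.641, limma-voom) and SMARCD1 from -0.27 to -0.084 (SE 0.077, unadjusted p = 0.311, limma-voom), both near 0. These 2 genes, ARID1A, ARID1B and SMARCC1 were above 0 on the TPM scale described next.

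The levels of the members were compared with each other in TPM, which are divided by gene length. Over the 6 libraries SMARCE1 had the highest mean with 123 TPM (63.7 to 219) and ARID1A the lowest with 3.45 TPM (3.06 to 3.77). Between them, in order, were SMARCA5 at 72.0, SMARCB1 at 61.0, SMARCC1 at 54.8, SMARCD1 at 35.0, SMARCC2 at 25.8, SMARCA4 at 23.5, ARID2 at 18.1 and ARID1B at 10.4 TPM. The order of neighbours held in all 6 libraries for SMARCE1 over SMARCA5, SMARCC1 over SMARCD1, SMARCD1 over SMARCC2, ARID2 over ARID1B and ARID1B over ARID1A. It held in 5 libraries for SMARCB1 over SMARCC1, SMARCC2 over SMARCA4 and SMARCA4 over ARID2. SMARCA5 was above SMARCB1 in only 2 libraries in spite of its higher mean, so these neighbours were not separated.

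**Figure D4:**
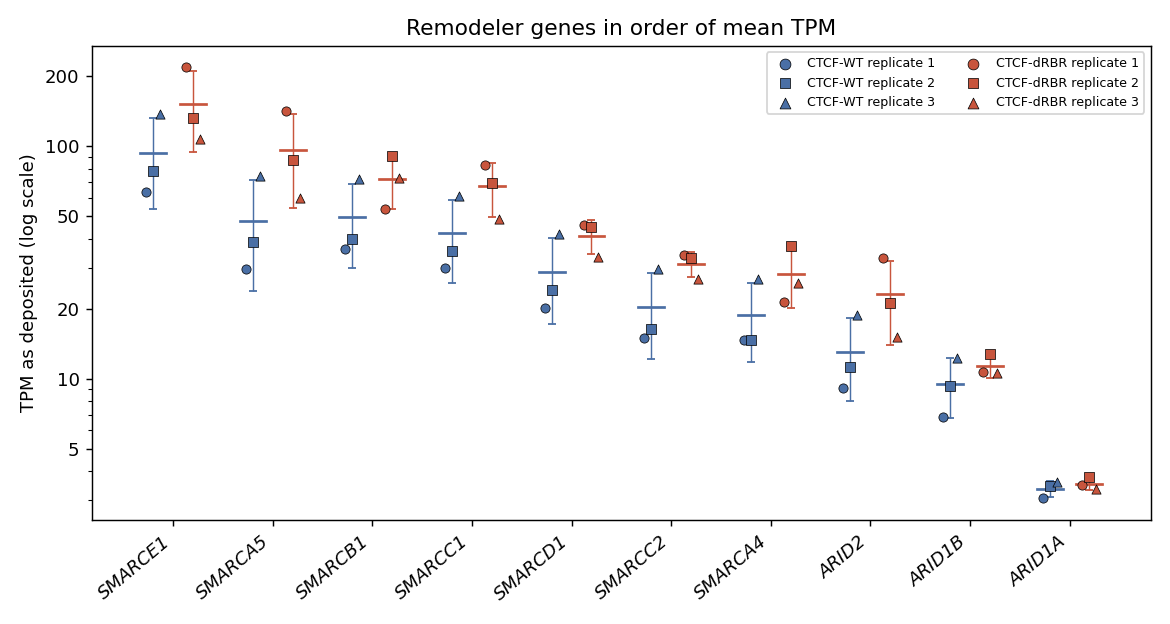
Deposited TPM (log axis) of the 10 remodeler genes in order of their mean over the 6 libraries, with CTCF-WT in blue, CTCF-dRBR in red, symbols by replicate, and the mean and SD of each group as lines. SMARCE1 is the highest in every library and ARID1A the lowest, and CTCF-WT replicates 1 and 2 are low for all genes but ARID1A, where the groups lie close together.

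In TPM every member had a higher mean in CTCF-dRBR, from 3.54 ± 0.21 TPM against 3.37 ± 0.27 TPM in CTCF-WT for ARID1A to 153 ± 58.2 TPM against 93.5 ± 39.4 TPM in CTCF-WT for SMARCE1 (SD, n = 3). SMARCA5 had 29.8, 38.7 and 74.7 TPM in CTCF-WT and 142, 87.0 and 59.9 TPM in CTCF-dRBR, with CTCF-WT replicate 3 above CTCF-dRBR replicate 3. For all members the groups overlapped in TPM, with exact permutation p between 0.2 and 0.5 (two-sided). The share of all TPM held by protein-coding genes moved in the same way, with 30.2%, 35.8% and 52.4% in CTCF-WT and 63.2%, 54.5% and 43.5% in CTCF-dRBR. On log2(TPM + 1) the median log2 fold change of all genes was 0.40, and relative to that median ARID1A (-0.35) and ARID1B (-0.14) were below and the other 8 members above, SMARCA5 by 0.61. With TPM rescaled to protein-coding genes SMARCA5 averaged 116 ± 23.1 under CTCF-WT and 174 ± 45.1 under CTCF-dRBR (SD, n = 3, exact permutation p = 0.2, two-sided), and ARID1A averaged 8.86 ± 1.76 and 6.72 ± 1.14 (p = 0.3).

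Further genes of the same machinery came from 3 lists. Of the 12 other ISWI subunits 11 were tested, 2 were higher and 1 lower at an unadjusted p under 0.05 (12.6% and 12.8% of all genes tested), and 0 passed the adjustment. Their median log2 fold change was 0.050. CECR2, the bromodomain partner of SMARCA5 or SMARCA1 in the CERF complex, had 4.42, 3.21 and 3.45 CPM under CTCF-WT and 6.15, 6.82 and 7.86 CPM under CTCF-dRBR. The groups did not overlap, CTCF-dRBR being the higher at a low level, with a log2 fold change of 0.92 (SE 0.19, unadjusted p = 0.00214, limma-voom adjusted p = 0.108). The difference was as large without CTCF-dRBR replicate 1 (1.00, limma-voom adjusted p = 0.0426) and after removal of the GC trend (0.99, adjusted p = 0.0199). CECR2 passed the adjustment in both of these fits, beside 3.90% and 9.21% of their genes. POLE3, a histone-fold subunit that CHRAC shares with DNA polymerase epsilon, had 199.9, 205 and 180.1 CPM under CTCF-WT and 139, 139.5 and 152 CPM under CTCF-dRBR, with no overlap. Its log2 fold change was -0.44 (SE 0.095, unadjusted p = 0.00295, limma-voom adjusted p = 0.112). It was -0.42 without CTCF-dRBR replicate 1 (limma-voom adjusted p = 0.0525) and -0.44 after removal of the GC trend (adjusted p = 0.0273). BAZ2B, a noncatalytic partner with a bromodomain, had 45.2 to 51.3 CPM under CTCF-WT and 59.3 to 91.9 CPM under CTCF-dRBR, also without overlap. Its log2 fold change was 0.59 (SE 0.17, limma-voom adjusted p = 0.149), 0.42 without CTCF-dRBR replicate 1 and 0.26 after removal of the GC trend.

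Of the 19 other SWI/SNF subunits 16 were tested, 0 were higher and 1 was lower at an unadjusted p under 0.05, and 0 passed the adjustment, with a median log2 fold change of -0.12. The gene was BRD9, the bromodomain subunit of the noncanonical BAF form, with 42.5, 41.3 and 42.8 CPM under CTCF-WT and 30.5, 35.0 and 37.5 CPM under CTCF-dRBR. The groups did not overlap, and the log2 fold change was -0.29 (SE 0.11, unadjusted p = 0.0379, limma-voom adjusted p = 0.184), but 0.076 after removal of the GC trend. DPF2, a histone-reading subunit of canonical BAF, followed with -0.33 (limma-voom unadjusted p = 0.0559) and BCL7B, an accessory subunit, with -0.30 (unadjusted p = 0.114). After removal of the GC trend DPF2 had -0.19 and BCL7B 0.056.

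Of the 16 ATPases of other remodelers 15 were tested, 0 were higher and 1 was lower at an unadjusted p under 0.05, and 0 passed the adjustment, with a median log2 fold change of 0.026. SRCAP, which deposits the histone variant H2A.Z, had 28.0, 24.7 and 17.1 CPM under CTCF-WT and 9.56, 12.9 and 17.0 CPM under CTCF-dRBR. The nearest libraries, both replicate 3, differed little, and the log2 fold change was -0.81 (SE 0.27, unadjusted p = 0.0242, limma-voom adjusted p = 0.164), -0.62 without CTCF-dRBR replicate 1 and -0.35 after removal of the GC trend. CHD4, the NuRD ATPase, had -0.22 (limma-voom unadjusted p = 0.0592) and EP400, of the TIP60 complex, -0.44 (unadjusted p = 0.0674), which after removal of the GC trend were -0.090 and -0.13.

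**Figure D5:**
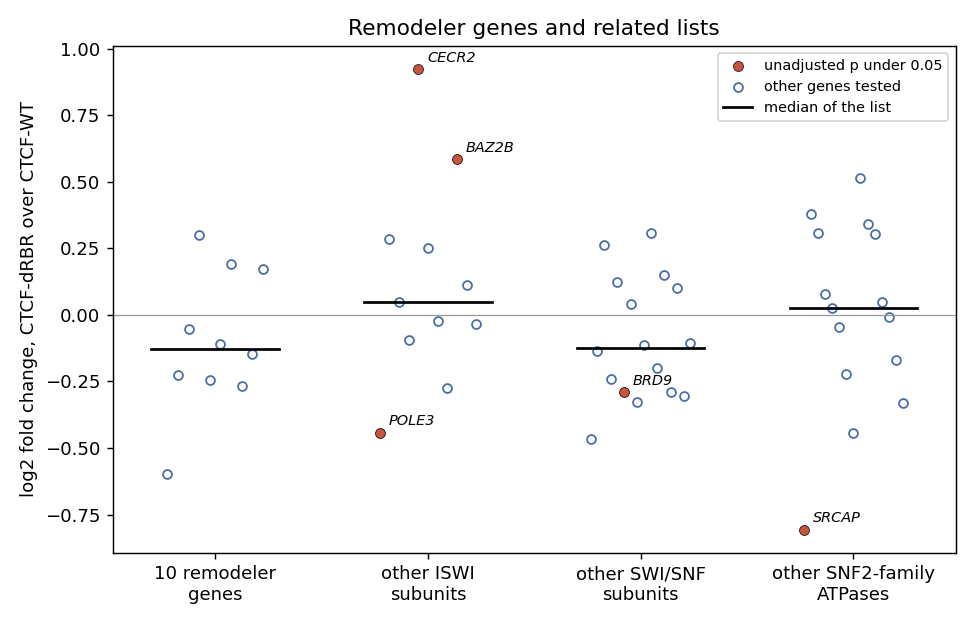
Log2 fold change (CTCF-dRBR over CTCF-WT, limma-voom) of every tested gene among the 10 remodeler genes, 11 other ISWI subunits, 16 other SWI/SNF subunits and 15 other SNF2-family ATPases, with the median of each list as a line and genes with an unadjusted p under 0.05 filled and named. The medians lie between -0.13 and 0.050, and no remodeler gene of the first list is filled.

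The genes whose profile over the 6 libraries was most like that of SMARCA5 were found among the 9180 other genes with a mean of at least 10 CPM, by the root mean square difference of log2(CPM + 1) centred on each gene's mean. They were CDKN3 (0.015), TARSL2 (0.019), ZNF146 (0.020), UACA (0.021) and BRD7 (0.024), against a median of 0.302 over all genes compared. Being chosen for the profile of SMARCA5, each of them also had CTCF-dRBR replicate 1 as the highest library. Their GC contents ran from 36.5% (UACA) to 46.2% (BRD7). BRD7 belongs to the list of other SWI/SNF subunits and had 128, 129 and 159 CPM under CTCF-WT and 235, 152 and 143 CPM under CTCF-dRBR.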

How the data were processed

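Total RNA of 3 CTCF-WT and 3 CTCF-dRBR libraries was sequenced by the authors after removal of ribosomal RNA. Reads were trimmed with Trim Galore (version 0.6.3), aligned to GRCh37 (hg19) with STAR (version 2.7.9a) and quantified with RSEM (version 1.3.1), per the labels and the methods. The deposited expected counts are RSEM estimates, not normalized. The deposited TPM were divided by gene length and scaled to the same total per library by the authors. The 92 spike-in sequences had 0 counts, and no column of other samples was found.

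Genes with at least 1 CPM in any library (14044 of 57820) were normalized by TMM (edgeR version 4.0.16) and fitted in R (version 4.3.3) by limma-voom (limma version 3.58.1), two-sided, with Benjamini-Hochberg adjustment and a threshold of 0.05. This is the authors' stated test, used here in place of edgeR's quasi-likelihood test, which with DESeq2 (version 1.42.0) was an alternative on rounded counts. The GC content of merged exons came from the GRCh37 genome and a Gencode annotation lifted to it, for 13654 genes. Its trend was removed by loess (span 0.5, degree 2) of each library's deviation in log2 CPM (prior count 1). The fits were run on simulated counts that held no GC trend and no library standing apart. How the fits behave with either was not tested there. Paralog ratios, TPM and CPM were compared by exact permutation tests (scipy version 1.17.1). Plots were made with matplotlib (version 3.10.9).

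The members and lists were chosen with earlier results of these data known. Named genes were the 10 members, CTCF, SMARCA1, SMARCA2, in each other list the 3 tested genes with the smallest unadjusted p, and the 5 genes with at least 10 mean CPM most like SMARCA5. Other alternatives were other normalizations and filters, limma-trend on log2 TPM with a pseudocount of 1 or of 0.1, voomWithQualityWeights, the replicate number as a block and each library left out. In the 6 libraries 3 counts correspond to between 0.0564 and 0.0999 CPM, which covers counting error alone.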

Additional observations from a re-analysis of the deposited data

How the results depend on the processing

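The members had at least 18.4 CPM in every library, and each group had 3 libraries. The fit that removed the GC trend and left out CTCF-dRBR replicate 1, and the count that set this library aside without new normalization, were chosen after seeing the data. Percentages are shares of all genes of the same fit. No member passed an adjusted p under 0.05 in any alternative but voomWithQualityWeights, where 7 did (68.2%). It also gave 7 members at an unadjusted p under 0.05 (71.4%), with most of the weight on replicate 2 of each group. Over all genes 1619 passed in DESeq2, 9583 in voomWithQualityWeights, 833 on log2(TPM + 1), 760 on log2(TPM + 0.1), 1258 after removal of the GC trend and 3139 when CTCF-dRBR replicate 1 was also left out. With a single library left out the count ran from 0 to 535, the latter without CTCF-dRBR replicate 1, and the cause was not tested.

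At an unadjusted p under 0.05 there was 1 member, ARID1A, in edgeR (24.6%), in DESeq2 (30.3%) and with no filter (14.0%). SMARCA5 was the 1 member on log2(TPM + 1) (28.8%) and log2(TPM + 0.1) (28.5%). SMARCA4 was the 1 member with the replicate block after GC removal (21.6%). There were 5 after removal of the GC trend (31.3%) and 4 when CTCF-dRBR replicate 1 was also left out (39.6%). Leaving out single libraries gave 0 to 2 members (1 without CTCF-WT replicate 3, 22.8%, or CTCF-dRBR replicate 1, 30.4%, and 2 without CTCF-dRBR replicate 3, 41.0%). Members without overlap numbered 2 in DESeq2 and with its size factors (37% each) and among protein-coding genes only (38.6%), 3 with no filter (18.7%) and with 1 CPM in 3 libraries (37.9%), 0 with library totals only (36.1%) and on both TPM scales (15.3% each), 4 after removal of the GC trend with or without the block (39.4% each), and 5 when CTCF-dRBR replicate 1 was also left out (56.5%). With single libraries left out and the rest filtered and normalized anew they numbered 1 to 7 (39.5% to 64.9%). With CTCF-dRBR replicate 1 set aside and the CPM kept they numbered 2.

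The shares of all genes at an unadjusted p under 0.05 were those just given, and 26.2% with library totals only. For the other ISWI subunits the count at an unadjusted p under 0.05 was 7 in voomWithQualityWeights, 5 with library totals only, on both TPM scales and after removal of the GC trend, 6 when CTCF-dRBR replicate 1 was also left out, and 3 to 5 without single libraries. For the other SWI/SNF subunits it was 2 in DESeq2, with no filter and on both TPM scales, 11 in voomWithQualityWeights, 0 with library totals only, 4 after removal of the GC trend, 3 when CTCF-dRBR replicate 1 was also left out, and 0 to 5 without single libraries. For the other ATPases it was 4 in DESeq2 and with no filter, 9 in voomWithQualityWeights, 2 with library totals only, 8 on log2(TPM + 1), 7 on log2(TPM + 0.1), 3 after removal of the GC trend, whether or not CTCF-dRBR replicate 1 was kept, and 0 to 7 without single libraries. Among the fits without a single library, the highest count in each of the 3 lists came without CTCF-dRBR replicate 3, as did the highest share of all genes (41.0%, against 10.2% for the lowest).

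Samples with the same replicate number did not deviate together (Pearson's r of their deviations -0.31, 0.083 and -0.44). This cannot show whether the libraries were made in pairs. With the replicate block (10.1% of all genes) 0 members, 0 other SWI/SNF subunits and 0 other ATPases had an unadjusted p under 0.05, and 3 other ISWI subunits. With the block after removal of the GC trend these counts were 1, 1, 0 and 4, and 0 genes passed the adjustment in either fit.

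Signs of single members turned in the following fits. With the GC trend removed, by itself, with the replicate block and with CTCF-dRBR replicate 1 left out, the log2 fold change was -0.032, -0.032 and -0.085 for SMARCA5, -0.15, -0.15 and -0.15 for SMARCE1, -0.11, -0.11 and -0.15 for ARID2, 0.27, 0.27 and 0.30 for SMARCA4, and 0.35, 0.34 and 0.41 for SMARCB1. With single libraries left out, SMARCA4 ran from -0.50 to 0.067 and SMARCB1 from -0.22 to 0.23, above 0 without CTCF-dRBR replicate 1. SMARCB1 was also above 0 in voomWithQualityWeights (0.27) and with library totals only (0.016). On the scales log2(TPM + 1) and log2(TPM + 0.1), with a median over all genes of 0.40 and 0.54, the values were 0.58 and 0.61 for SMARCA4, 0.58 and 0.58 for SMARCB1, 0.69 and 0.71 for SMARCC1, 0.65 and 0.68 for SMARCC2, 0.57 and 0.58 for SMARCD1, 0.057 and 0.072 for ARID1A, and 0.26 and 0.29 for ARID1B. With no filter the median of all genes was 0.19. Relative to that median all members were below 0, among them SMARCA5 (-0.0021), SMARCE1 (-0.12) and ARID2 (-0.097), which were above 0 as fitted. The other 167 fits of single members kept the sign of the log2 fold change as fitted.

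Without single libraries the difference in the log2 ratio ran from -0.083 to 0.13 for SMARCC1 to SMARCC2, from -0.38 to -0.073 for ARID1A to ARID1B and from -0.56 to 0.071 for SMARCA4 to SMARCA2. It was above 0 for the last and below 0 for the first without CTCF-dRBR replicate 1 only, and ratios of CPM kept the sign of all 3. Rescaled to protein-coding genes, mean TPM were 145 for SMARCA5, 50.5 for SMARCA4, 131 for SMARCB1, 115 for SMARCC1, 54.6 for SMARCC2, 74.2 for SMARCD1, 255 for SMARCE1, 7.79 for ARID1A, 22.8 for ARID1B and 37.3 for ARID2, all higher by more than 1 SD of the deposited values.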
